A study of Mus musculus with 61 samples.

Results

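Transcripts of 60 genes for splicing factors and small nuclear ribonucleoprotein (snRNP) proteins were followed from the mouse MII oocyte through the first days after fertilisation, and in embryos of 4 Klf17 genotypes. The members were taken by symbol: those starting with Sf3a, Sf3b, Srsf, Prpf, Lsm or Snrp, with pseudogene symbols left out, plus Eftud2 and Cdc5l. Of 61 such genes, Snrpn was left out, which leaves 60 of the 24551 genes in the table of labelling windows. All 60 are also among the 22911 genes in the table of genotypes. One of them, Lsmem1, shares only the letters of its symbol with the LSM family. It enters the counts and medians over all members but is in none of the role groups below.

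The spliceosome cuts introns out of pre-mRNA and is put together anew on each intron from the U1, U2, U4, U5 and U6 snRNPs. Rings of Sm proteins hold U1, U2, U4 and U5 snRNA, and a ring of LSM proteins holds U6 snRNA, while a related LSM ring in the cytoplasm takes part in mRNA decapping. SF3a and SF3b proteins fix U2 snRNP to the branch point, PRPF proteins carry the U4/U6.U5 tri-snRNP and the active site, and SR proteins bind exons and guide the choice of splice sites. The egg carries a store of maternal mRNA and is transcriptionally silent at ovulation, and the store is cleared while the embryo's own genome switches on, in the mouse mainly at the 2-cell stage.

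The study sequenced polyadenylated RNA by SLAM-seq, in which cells take up 4-thiouridine (4SU) and the labelled bases are alkylated so that new RNA can later be told from old RNA by base conversions. The libraries used here are labelled as 4SU-treated, with 2 mM 4SU for 6 hours in the protocol, the MII libraries included. The first experiment has 10 groups of 3 libraries labelled WT each: MII oocytes (eggs arrested in the second meiotic division) and embryos made by in vitro fertilisation at 0-6hpi, 6-12hpi, 12-18hpi, 18-24hpi, 24-30hpi, 30-36hpi, 48-54hpi, 70-76hpi and 90-96hpi, where hpi is hours post insemination and the numbers bound the labelling window. The design text states 10 embryos per sample, so each library is a pool. For 0-6hpi the sperm and the cumulus-oocyte complexes were also in 4SU medium, so that window was handled unlike the others. The second experiment has 11 libraries of embryos at a stage the labels give as M2C and do not expand: 3 ctrl (labelled WT), 3 KO (labelled Klf17 KO), 3 mKO (Klf17 maternal KO) and 2 pKO (Klf17 paternal KO). KLF17 is a zinc finger transcription factor. How the alleles and crosses were made and whether replicates came from separate fertilisations are not given in the sources used here. The spread that the p-values rest on is therefore that between libraries, which may be technical.

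The deposited values are read counts per gene, with no statement that converted reads were counted apart. They are therefore treated as total polyadenylated RNA, in which new and stored transcripts cannot be told apart, and neither can more RNA and a longer poly(A) tail after oligo-dT priming. Totals ran from 7395193 to 13301570 reads per window library and from 14080264 to 23018252 per genotype library. Replicates of a window had a Pearson r of 0.976 to 0.993 over genes, and those of a genotype 0.913 to 0.980. Stages are given here by window, since the labels name none beyond the MII oocyte. The summed level of 6 oocyte markers was 8511 to 8865 CPM (read counts scaled to library size) in MII and 1.22 to 49.6 CPM at 90-96hpi. That of 5 markers of the 2-cell stage was highest at 18-24hpi (1535 to 1817 CPM) and that of 8 blastocyst markers was highest at 90-96hpi (5148 to 8703 CPM). Cumulus cell markers summed to 135 to 153 CPM in MII, almost all of it Cyp19a1, with Amh, Ptx3 and Tnfaip6 at 0.

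From MII to 90-96hpi the members did not move together, and their highest levels were spread over the series. A member was called where edgeR's quasi-likelihood test, fitted over all 30 libraries and adjusted over all 16234 genes tested, gave an adjusted p below 0.05, and changes are given as log2 fold changes (log2FC) with the standard error (SE); 59 of the 60 members were tested, and Srsf12, at 0 to 0.641 CPM in every window library, was not. Of the 59, 12 had their highest mean in MII, 17 at 48-54hpi and 12 at 90-96hpi. Their summed level was 9503 ± 345 CPM in MII, lowest at 24-30hpi (6082 ± 154 CPM) and highest at 48-54hpi (13903 ± 315 CPM; SD, n = 3 each). The place of the low point depends on the scaling, since a larger TMM factor lowers the CPM. These factors were 1.22 to 1.29 at 24-30hpi, 0.905 to 0.977 at 18-24hpi and 0.784 to 0.831 in MII. An embryo's cells multiply and diversify over these days, and in such bulk samples fewer cells of a type and less RNA per cell cannot be told apart.

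From MII to 0-6hpi, 12 members rose and 20 fell, where 12.9% of all genes tested rose and 8.28% fell. The next step, to 6-12hpi, called 6 up and 2 down against 4.73% and 2.93% of all genes. At 12-18hpi the calls were 10 up and 8 down, with 7.11% and 6.09% of all genes. Over these 3 steps together, from MII to 12-18hpi, 16 members rose and 20 fell, against 27.9% and 15.9% of all genes. By 18-24hpi the counts stood at 15 up and 18 down, against 18.1% and 14.9%. The 24-30hpi window had 24 higher and 21 lower, against 21% and 24.4%. In these 5 single steps the median log2 fold change of the members lay between -0.21 and 0.12, and that of all genes between -0.12 and 0.12.

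With TMM factors the balance turned upward after 24-30hpi. The place of this turn depends on the scaling. Under total count scaling the calls were already 21 up and 16 down at 18-24hpi, and 31 up and 13 down at 24-30hpi. From 24-30hpi to 30-36hpi, 33 members rose and 9 fell, against 21% and 29% of all genes, with a median log2 fold change of 0.48 for the members and -0.22 for all genes. From there to 48-54hpi a further 33 rose and 8 fell, against 28.7% and 33.3%, with medians of 0.57 and -0.19. At 70-76hpi the calls were 11 up and 19 down (21.6% and 21.8% of all genes), and at 90-96hpi 17 up and 17 down (20.1% and 19.5%). Over the whole span from MII to 90-96hpi, 31 members rose and 21 fell, against 42.6% and 38.4% of all genes. Scaling to total counts in place of TMM factors shifted the median of all genes by up to 0.53 on the log2 scale (MII to 90-96hpi), and under it the calls were 17 up and 16 down at 0-6hpi, 8 and 10 at 12-18hpi, 21 and 16 at 18-24hpi, 31 and 13 at 24-30hpi, 26 and 20 at 48-54hpi, 18 and 13 at 70-76hpi, and 37 and 14 over the whole span. With DESeq2 size factors in edgeR the 0-6hpi calls were 9 up and 25 down.

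**Figure D1:**
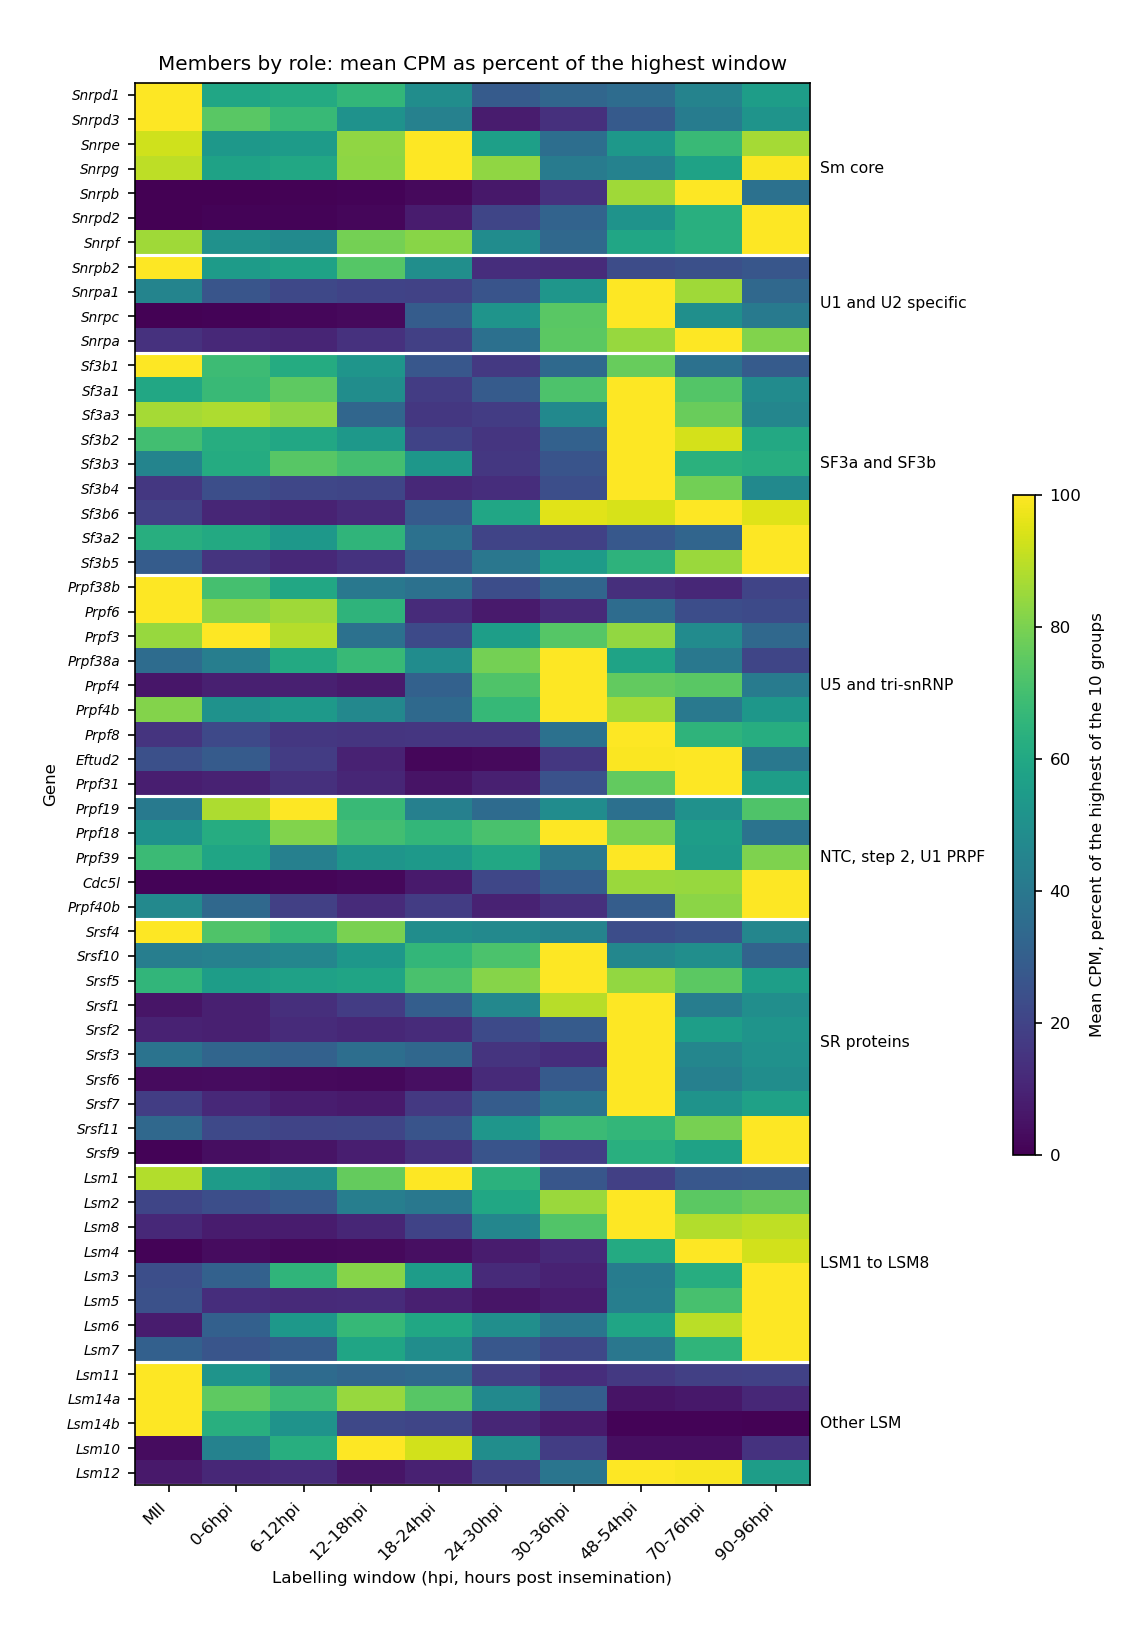
Mean CPM of the tested members whose values are reported, other than Lsmem1 (rows, grouped by role), in the 10 window groups (columns, 3 libraries each), as a percent of that gene's highest group; the scale compares groups within a gene, not genes. Of all tested members, 12 are highest in MII and 17 at 48-54hpi, and many SF3 and U5 rows are lowest at 18-24hpi or 24-30hpi.

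The 7 Sm core genes, whose products form the ring on U1, U2, U4 and U5 snRNA, did not start from a common level in the egg. Per kilobase of the table's gene length, the MII means were 627 CPM for Snrpe, 511 for Snrpd1, 348 for Snrpg and 312 for Snrpf. On the same scale Snrpd3 stood at 35.9, Snrpb at 1.39 and Snrpd2 at 0.894. The highest and lowest of the 7 thus differed 701-fold in MII, and 31.3-fold at 90-96hpi, where the lowest was Snrpd3 at 18.7 CPM per kilobase. The size of the MII ratio is uncertain, since Snrpd2 had a mean of 1.27 CPM there and so few reads. How reads that match several places were handled is not stated, so levels of short snRNP genes with processed pseudogenes, and of Snrpb beside its near copy Snrpn, are uncertain.

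Snrpb, which encodes SmB/B′, was close to absent in the egg, with 1.06, 5.61 and 0.442 CPM in the 3 MII libraries. It read 52.7, 47.1 and 57.2 CPM at 24-30hpi, 695, 741 and 705 CPM at 48-54hpi and 842, 836 and 824 CPM at 70-76hpi. Each later set lies above every library of the one before it. The rise was called from 12-18hpi to 18-24hpi (log2FC 1.68, SE 0.34, adjusted p = 0.000331), and again at each step to 48-54hpi, the last of them the largest (log2FC 2.59, SE 0.28, adjusted p = 1.98e-08). At 90-96hpi it fell to 429.7, 227 and 274 CPM (log2FC -1.43, SE 0.27, adjusted p = 0.00015). Snrpd2, for SmD2, climbed with no called fall from 1.27, 1.32 and 1.22 CPM in MII through 28.4, 35.8 and 22.9 at 18-24hpi to 338, 396 and 388 at 90-96hpi. Its change over the whole span was the largest rise of any member (log2FC 8.19, SE 0.23, adjusted p = 3.44e-26).

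The other 5 Sm genes were at 78.7 CPM or higher in the egg and dipped before they rose again; Snrpd1 and Snrpd3 ended below their egg level (from MII to 90-96hpi, log2 fold changes of -0.84 (SE 0.11) and -0.94 (SE 0.20), both called). Snrpe, for SmE, had 423, 439 and 397 CPM in MII, 442, 479.8 and 434 at 18-24hpi, 172, 178 and 138 at 30-36hpi and 358, 416 and 398 at 90-96hpi. The 30-36hpi libraries lie below all others of this gene. It fell at 24-30hpi (log2FC -0.83, SE 0.11, adjusted p = 2.21e-07) and at 30-36hpi (log2FC -0.65, SE 0.11, adjusted p = 1.3e-05), and its rise at 48-54hpi was log2FC 0.57, SE 0.11, adjusted p = 5.19e-05, lost in 2 of 12 alternatives with an adjusted p up to 0.521. Snrpd3, for SmD3, went from 40.0, 52.4 and 51.7 CPM at 18-24hpi to 10.6, 7.31 and 7.63 at 24-30hpi, with no overlap (log2FC -2.49, SE 0.22, adjusted p = 2.46e-11). Snrpd1, for SmD1, went from a mean of 428 CPM in MII to 123 at 24-30hpi and 238 at 90-96hpi. Snrpf and Snrpg, for SmF and SmG, were lowest at 30-36hpi, with means of 106 and 169.6 CPM. From 12-18hpi to 30-36hpi, where 33.3% of all genes rose and 41% fell, Snrpb and Snrpd2 rose and the other 5 Sm genes fell.

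**Figure D2:**
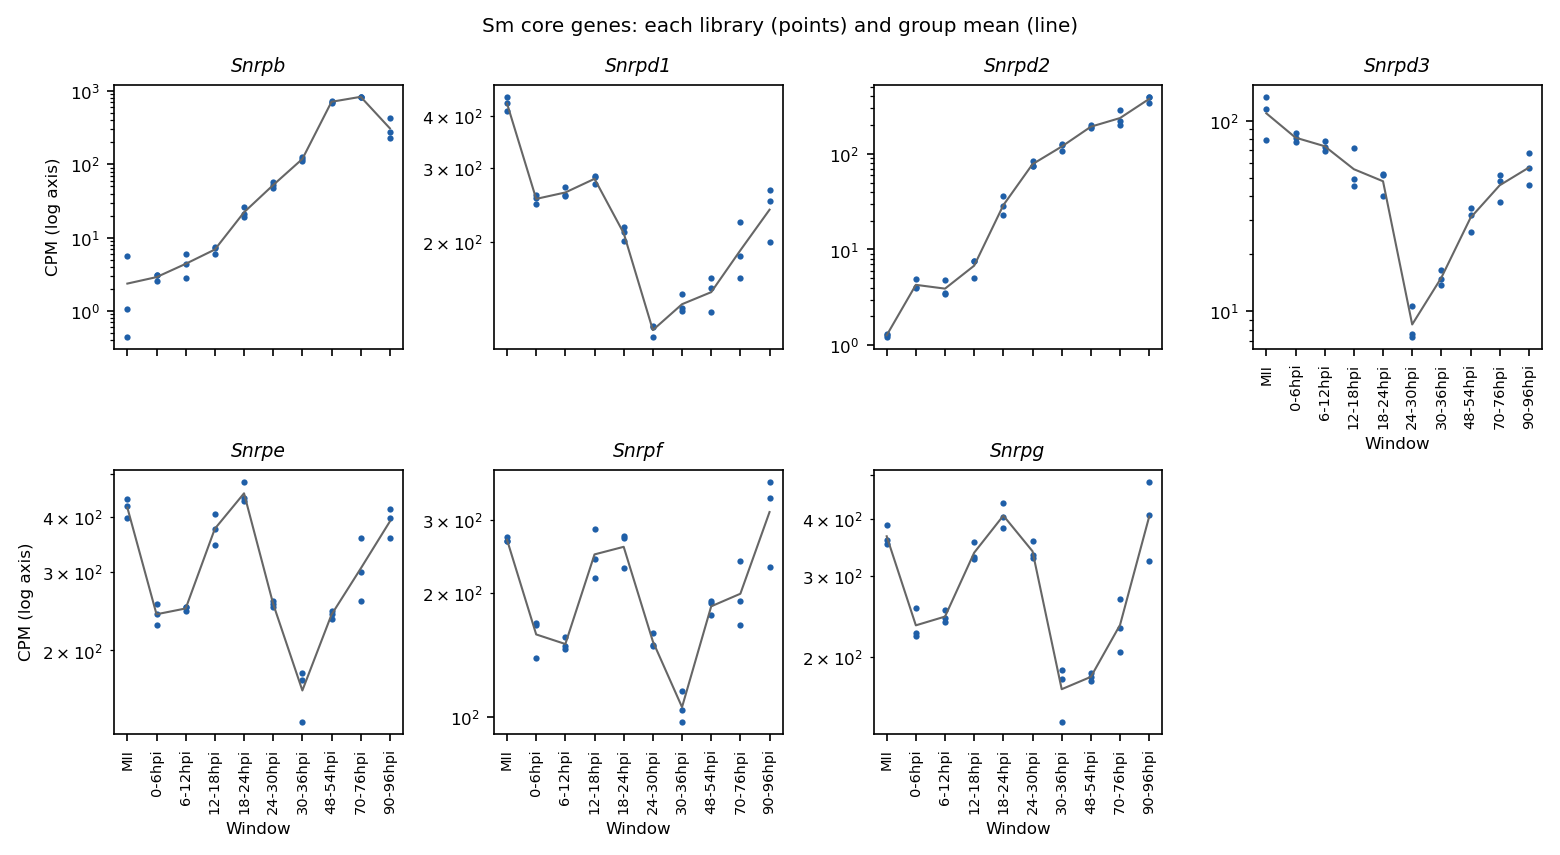
CPM of the 7 Sm core genes on log axes with their own range in each panel; points are the 3 libraries of each group and lines join group means. Snrpb and Snrpd2 climb from 0.442 to 5.61 CPM in MII, while the other 5 start at 78.7 CPM or higher and dip at 24-30hpi or 30-36hpi.

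Snrpb and Snrpd2 belong to 7 members that stood under 10 CPM in MII and reached at least 100 CPM in their highest window, a set described after its values were seen: the others are Snrpc, Lsm4, Cdc5l, Lsm10 and Lsm12. RefSeq promoter windows (build GRCm38.p6) were matched for 50 of the 60 members, and 4 of these 7 have one. The 250 bases before the annotated start are shown for those 4, since these genes rose far above their egg level, and for Lsm14b as the member with the largest fall; capitals mark matches to the motifs spelled out below, on either strand. The windows lie at chr17:27839837-27840086 on the plus strand for Snrpc, chr17:45433708-45433957 on the minus strand for Cdc5l, chr4:126096403-126096652 on the plus strand for Lsm10, chr7:19149588-19149837 on the plus strand for Snrpd2 and chr2:180024737-180024986 on the plus strand for Lsm14b.
Snrpc: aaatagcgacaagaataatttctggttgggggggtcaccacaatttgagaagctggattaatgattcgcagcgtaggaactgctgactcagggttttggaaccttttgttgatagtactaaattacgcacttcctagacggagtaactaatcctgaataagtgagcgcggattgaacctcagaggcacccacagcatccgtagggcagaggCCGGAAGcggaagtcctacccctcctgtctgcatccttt
Cdc5l: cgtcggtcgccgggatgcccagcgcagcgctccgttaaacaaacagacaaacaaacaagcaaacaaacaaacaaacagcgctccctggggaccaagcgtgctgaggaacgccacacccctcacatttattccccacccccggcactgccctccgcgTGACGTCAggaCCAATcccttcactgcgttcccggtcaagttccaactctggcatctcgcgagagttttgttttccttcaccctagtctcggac
Lsm10: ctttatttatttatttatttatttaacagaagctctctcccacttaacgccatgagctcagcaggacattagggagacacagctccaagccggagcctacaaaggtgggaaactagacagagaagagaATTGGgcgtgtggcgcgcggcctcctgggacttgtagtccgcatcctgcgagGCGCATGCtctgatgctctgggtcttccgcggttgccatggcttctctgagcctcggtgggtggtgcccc
Snrpd2: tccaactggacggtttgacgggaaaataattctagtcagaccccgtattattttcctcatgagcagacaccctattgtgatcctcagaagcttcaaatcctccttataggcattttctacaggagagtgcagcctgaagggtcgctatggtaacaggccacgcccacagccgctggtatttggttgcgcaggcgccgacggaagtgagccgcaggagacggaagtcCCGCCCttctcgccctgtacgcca
Lsm14b: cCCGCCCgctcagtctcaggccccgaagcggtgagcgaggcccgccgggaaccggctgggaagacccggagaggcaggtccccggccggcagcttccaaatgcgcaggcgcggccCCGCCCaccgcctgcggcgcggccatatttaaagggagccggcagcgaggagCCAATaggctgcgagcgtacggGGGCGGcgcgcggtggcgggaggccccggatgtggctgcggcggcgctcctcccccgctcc
The letters searched for ETS factors were CCGGAAG, and those for SP and KLF factors, a family that includes KLF17, were GGGCGG. No letters particular to KLF17 were searched. The NF-Y letters were CCAAT, those of NRF1 were GCGCATGC and those of CREB were TGACGTCA. The TATA box was searched as TATAAA, the YY1 site as AAGATGGC and the E-box as CACGTG, and none of these searches excluded overlap with another. Snrpc holds the ETS letters, Cdc5l the CREB and NF-Y letters, Lsm10 the NF-Y and NRF1 letters, and Snrpd2 and Lsm14b the SP/KLF letters, Lsm14b also the NF-Y letters. No 2 of the 4 low-in-egg windows share the same combination. Over all 60 windows of the 50 members, 33.3% hold the ETS letters and 60% the SP/KLF letters, against 6.91% and 32.7% of all 32851 windows of that length. The NF-Y letters are in 38.3% of member windows and 33.8% of all, the NRF1 letters in 8.33% and 2.26%, the CREB letters in 6.67% and 1.55%, the TATA letters in 6.67% and 12.4%, the YY1 letters in 1.67% and 1.56% and the E-box letters in 8.33% and 6.02%. These are matches of letters, not sites, and several windows can belong to 1 gene.

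Genes for proteins specific to U1 or U2 snRNP divided in the same way, with Snrpc low in the egg and Snrpb2 high. Snrpc, the U1-C protein that helps U1 snRNP hold the 5′ splice site, read 10.1, 9.31 and 14.1 CPM at 12-18hpi and 133, 139 and 129.6 CPM at 18-24hpi. The 2 sets do not overlap, and the rise was second only to that of Lsm10 at 0-6hpi among all steps between neighbouring groups (log2FC 3.58, SE 0.19, adjusted p = 1.42e-16). It reached 451, 464 and 469 CPM at 48-54hpi and fell at 70-76hpi to 238, 228 and 225 CPM (means of 461 and 231 CPM, SE of the log2FC 0.16, adjusted p = 2.82e-06). Snrpa, the U1-A protein, rose from a mean of 58.3 CPM at 18-24hpi to 114 and then 230.3 CPM, with the last step log2FC 1.02, SE 0.15, adjusted p = 5.18e-07.

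Snrpb2, the U2-B″ protein that binds U2 snRNA together with the product of Snrpa1, ran the other way. It had 817, 896 and 774 CPM in MII, 372, 401 and 456 at 18-24hpi, 107, 114 and 105 at 24-30hpi and 196, 234 and 236 at 90-96hpi. The loss at 24-30hpi was without overlap (log2FC -1.92, SE 0.11, adjusted p = 1.56e-15), and the gene regained only part of its egg level. Snrpa1, for U2-A′, fell from 289, 304 and 303 CPM in MII to 180.1, 164 and 179 CPM at 0-6hpi. It then rose at 24-30hpi (log2FC 0.39, called) and 30-36hpi (log2FC 1.01, SE 0.13, adjusted p = 4.75e-08). It rose further at 48-54hpi to 644, 706 and 628 CPM, and fell again at 90-96hpi to 274, 180.4 and 211 CPM (log2FC -1.35, SE 0.13, adjusted p = 1.88e-10). The 2 partners on U2 snRNA were thus at their highest in different groups, MII for Snrpb2 and 48-54hpi for Snrpa1.

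Most SF3a and SF3b transcripts passed through a low point at 18-24hpi or 24-30hpi. From 12-18hpi to 18-24hpi, 7 of the 9 fell and 2 rose (Sf3b5 and Sf3b6, for small SF3b proteins), and from 24-30hpi to 30-36hpi 8 of the 9 rose and none fell. Of all genes, 18.1% rose and 14.9% fell in the first of these steps, and 21% rose and 29% fell in the other; Sf3a2 was not called at 30-36hpi (log2 fold change -0.08). Together with the U5 and tri-snRNP genes, 11 of 18 had their lowest mean at 18-24hpi or 24-30hpi, against 6 of the other 41 tested members, a count made after the values were seen. Sf3b1, the branch-point clamp of SF3b, was among the most abundant members in the egg at 1346, 1452 and 1431 CPM. It read 699, 702 and 800.5 CPM at 12-18hpi, 208, 262 and 230.0 at 24-30hpi and 1119, 1100.1 and 1034 at 48-54hpi. No library at 24-30hpi reached the level of any library at 12-18hpi or 48-54hpi. The fall at 0-6hpi was log2FC -0.54, SE 0.12, adjusted p = 0.000696. The falls at 18-24hpi (log2FC -0.93, SE 0.12) and 24-30hpi (log2FC -0.72, SE 0.12) and the rises at 30-36hpi (log2FC 1.05, SE 0.12) and 48-54hpi (log2FC 1.17, SE 0.12) were each called, with adjusted p of 5.36e-06 or lower. Sf3b1 fell again at 70-76hpi to 511, 602 and 468 CPM (log2FC -1.04, SE 0.12, adjusted p = 5.05e-09).

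Sf3a3 and Sf3a1, which join with Sf3a2 in the SF3a complex, both fell at 12-18hpi, where Sf3b1 was not called (log2 fold change -0.24). Sf3a3 dropped from 193, 187 and 169 CPM at 6-12hpi to 79.1, 57.6 and 81.8 at 12-18hpi (log2FC -1.33, SE 0.15, adjusted p = 7.48e-08) and to 30.8, 36.8 and 39.2 at 18-24hpi. It rose to 99.7, 112 and 100.1 CPM at 30-36hpi (log2FC 1.41, SE 0.16, adjusted p = 2.5e-09) and 213, 218 and 228 at 48-54hpi. Sf3a1 read 104, 100.3 and 132 CPM at 12-18hpi, 33.6, 40.2 and 47.2 at 18-24hpi and 159.7, 138 and 197 at 30-36hpi, with the drop log2FC -1.47, SE 0.14, adjusted p = 2.46e-10. In each of these sets the libraries of the lower window lie below all of the higher. Sf3b2 fell at 18-24hpi (log2FC -1.39, SE 0.15, adjusted p = 2.72e-09), and again at 24-30hpi (log2 fold change -0.39). The second fall was no larger than the 0.39 by which total count scaling raised the median of all genes at 24-30hpi, so it depends on the scaling. Sf3b3 fell in both steps too, by less at 18-24hpi (log2FC -0.40, SE 0.13, adjusted p = 0.0199, lost in 6 of 12 alternatives with an adjusted p up to 0.18) than at 24-30hpi (log2FC -1.70, SE 0.14, adjusted p = 5.82e-12).

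The genes of small SF3b proteins had another course. Sf3b5 fell at fertilisation from 109, 113 and 151 CPM to 65.8, 62.1 and 65.4 CPM (log2FC -0.95, SE 0.12, adjusted p = 2.47e-07) and its mean then rose in every window from 12-18hpi on, to 471, 396 and 411 CPM at 90-96hpi. Sf3b6, which contacts the branch-point adenosine region, went from 18.9, 24.6 and 18.3 CPM at 12-18hpi to 174, 168 and 154 CPM at 30-36hpi (log2FC 3.01, SE 0.18, adjusted p = 9.14e-17). Sf3b4, an RNA-binding subunit, had the step with the largest fold of the 9 at 48-54hpi, from 49.6, 54.2 and 65.7 to 224, 229 and 253 CPM (log2FC 2.06, SE 0.17, adjusted p = 1.14e-12). Sf3a2, like Sf3b5, was highest at 90-96hpi, where its libraries (22.9, 47.5 and 35.1 CPM) spread widely. It rose over 70-76hpi (log2FC 1.61, SE 0.25, adjusted p = 1.97e-06).

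A low point in the same windows was seen for genes of U5 snRNP and the tri-snRNP. Of these 9 genes, 6 fell and 1 (Prpf4) rose at 18-24hpi, and 7 rose and none fell at 30-36hpi, beside the same shares of all genes (18.1% rose and 14.9% fell, then 21% and 29%). Eftud2, the GTPase of U5 snRNP that also works when the spliceosome is taken apart, went from 20.6, 13.6 and 18.1 CPM at 12-18hpi to 2.01, 3.69 and 5.13 CPM at 18-24hpi (log2FC -2.27, SE 0.22, adjusted p = 1.49e-10). It returned to 29.0, 27.2 and 33.7 CPM at 30-36hpi (log2FC 2.58, SE 0.20, adjusted p = 9.72e-13) and 192, 177 and 184 CPM at 48-54hpi (log2FC 2.62, SE 0.18, adjusted p = 6.33e-15). The 48-54hpi libraries exceed every egg library of this gene (46.5, 44.9 and 44.9 CPM). At 90-96hpi the level was back to 78.7, 69.4 and 74.6 CPM (log2FC -1.32, SE 0.17, adjusted p = 7.64e-08).

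Prpf6, which bridges U5 to U4/U6, had the steepest fall at 18-24hpi, from 237, 202 and 211 to 37.9, 40.3 and 45.3 CPM (log2FC -2.40, SE 0.13, adjusted p = 2.4e-16). Unlike Eftud2 it did not regain its egg level of 374, 351 and 274 CPM, with 119, 110.2 and 123 CPM at its later high point of 48-54hpi. Prpf31, a U4 snRNP protein, reached 153, 150.3 and 141 CPM at 70-76hpi from 7.81, 5.99 and 9.13 CPM at 18-24hpi, and its rise at 30-36hpi was log2FC 1.53, SE 0.21, adjusted p = 2.69e-07. Prpf4, for a U4/U6 protein, rose while most of the group fell, from 5.18, 8.35 and 7.31 to 35.4, 31.0 and 23.9 CPM (log2FC 2.11, SE 0.26, adjusted p = 3.36e-08). Its partner in the same complex, Prpf3, fell in that step. Prpf3 had also fallen a window before, at 12-18hpi (log2FC -1.25, SE 0.18, adjusted p = 3.75e-06). Prpf38b was highest in MII (205, 226 and 196 CPM), and its rise at 90-96hpi started from a mean of 22.9 CPM (log2FC 0.89, SE 0.17, adjusted p = 5.99e-05). Prpf38a and the kinase gene Prpf4b were highest at 30-36hpi, with means of 313 and 149.5 CPM.

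Prpf8, the large protein at the heart of the active site, had no such dip. Its group means lay between 31.0 and 45.8 CPM from MII to 24-30hpi, and the libraries of neighbouring windows in that span overlapped apart from MII and 0-6hpi. The difference between those 2 was log2FC 0.56, SE 0.18, adjusted p = 0.0187, lost in 3 of 12 alternatives with an adjusted p up to 0.333. It then rose at 30-36hpi to 67.9, 86.1 and 77.1 CPM (log2FC 1.26, SE 0.18, adjusted p = 2.51e-07) and at 48-54hpi to 188, 220.3 and 209 CPM (log2FC 1.41, SE 0.17, adjusted p = 7.45e-09).

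**Figure D3:**
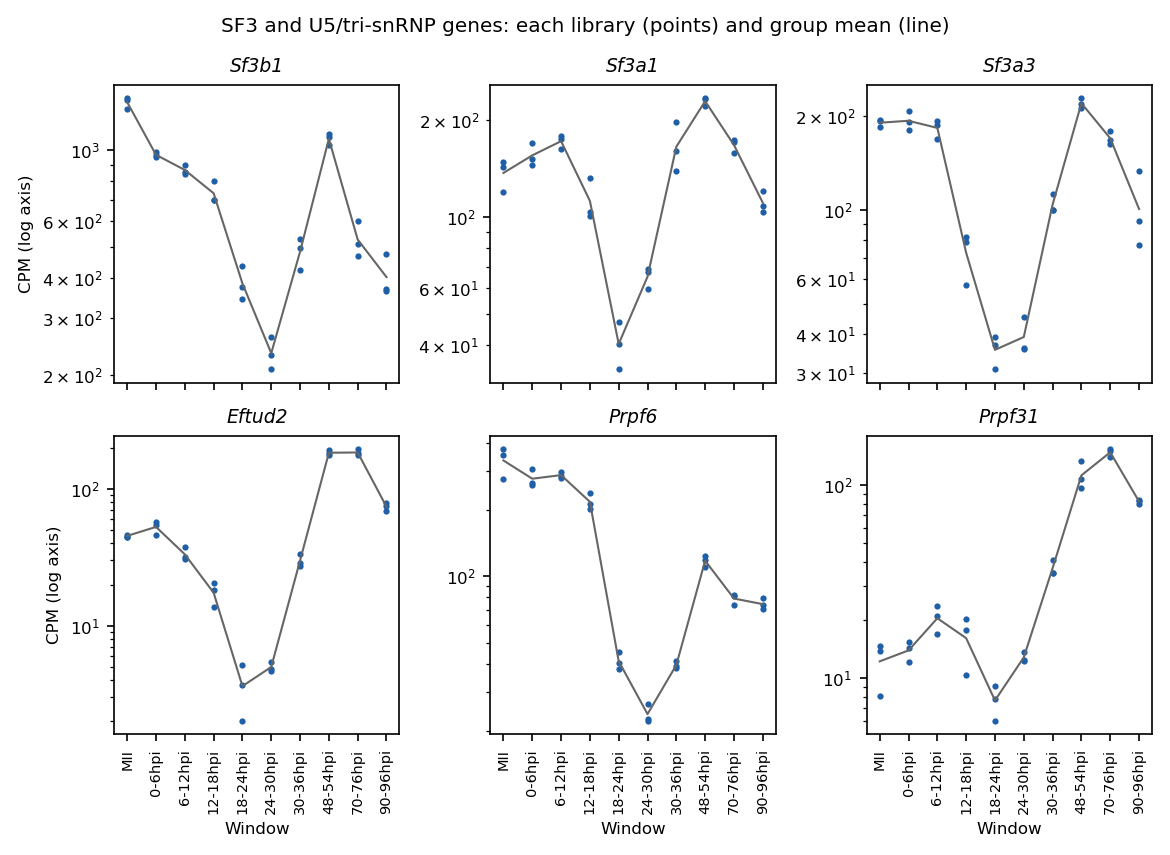
CPM of 3 SF3 genes and 3 U5 or tri-snRNP genes on log axes with their own range in each panel; points are the 3 libraries of each group and lines join group means. All 6 are lowest at 18-24hpi or 24-30hpi, where 11 of all 18 genes of these 2 roles were lowest. Prpf8, which had no such dip, is not shown. Eftud2 falls to 2.01 to 5.13 CPM at 18-24hpi and reaches 177 to 192 CPM at 48-54hpi.

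Among the Prp19 complex, step 2 and U1-associated PRPF genes, Cdc5l stood out. Cdc5l, a Prp19 complex subunit that stays in the active spliceosome, read 8.39, 4.29 and 2.10 CPM in MII, 36.8, 44.8 and 27.4 at 18-24hpi, 113, 96.7 and 119.7 at 24-30hpi and 574, 480.0 and 492 at 90-96hpi. The libraries from 18-24hpi on lie above all before, with called rises at 18-24hpi (log2FC 1.78, SE 0.28, adjusted p = 8.57e-06) and 24-30hpi (log2FC 1.59, SE 0.25, adjusted p = 6.53e-06). Prpf19, the ubiquitin ligase after which that complex is named, stayed between 3.63 and 14.8 CPM in all 30 libraries. It was called at 0-6hpi (log2FC 1.08, SE 0.34, adjusted p = 0.0213, lost in 5 of 12 alternatives with an adjusted p up to 0.122) and over the whole span (log2FC 0.81, SE 0.35, adjusted p = 0.0323, lost in 4 of 12 alternatives with an adjusted p up to 0.161), and in no step between neighbouring windows after 0-6hpi. Prpf40b stayed at or below 2.35 CPM in every library. Prpf39, a U1-associated protein, had its largest rise at 48-54hpi (log2FC 1.33, SE 0.18, adjusted p = 6.86e-08), and Prpf18, a step 2 factor, was highest at 30-36hpi with a mean of 135 CPM against 69.1 CPM in MII.

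The genes that tell the 2 LSM rings apart differed in course. Lsm1 belongs to the cytoplasmic decapping ring, and Lsm8 takes its place in the nuclear ring on U6 snRNA. The 2 genes moved in opposite directions from 18-24hpi to 48-54hpi. Both had risen at 18-24hpi, and at 70-76hpi Lsm1 rose while Lsm8 was not called. Lsm1 read 212, 253 and 241 CPM at 18-24hpi, 67.4, 64.2 and 58.2 at 30-36hpi and 42.8, 49.4 and 41.9 at 48-54hpi, while Lsm8 read 34.0, 32.2 and 23.4, 114, 109.8 and 98.4 and 129.9, 159.8 and 152 CPM. In both genes the 18-24hpi libraries do not overlap those of the later windows. From 12-18hpi to 30-36hpi Lsm1 fell (log2FC -1.51, SE 0.14, adjusted p = 1.16e-11) and Lsm8 rose (log2FC 2.78, SE 0.20, adjusted p = 1.17e-14). Over the whole span from MII to 90-96hpi, 7 of the 8 ring genes rose and Lsm1 alone fell (log2FC -1.67, SE 0.14, adjusted p = 6.35e-13), with a median log2 fold change of 2.04 for the 8.

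The subunits shared by both rings did not follow a common course either. Lsm4 rose from 1.70, 1.43 and 0.663 CPM in MII to 149, 122 and 149.8 CPM at 70-76hpi, with its largest step at 48-54hpi (log2FC 2.40, SE 0.22, adjusted p = 1.38e-11). Lsm5 read 6.04, 9.17 and 10.1 CPM at 24-30hpi and 123, 160.0 and 153 CPM at 90-96hpi, and it too rose most at 48-54hpi (log2FC 2.46, SE 0.21, adjusted p = 2.29e-12). Lsm3 rose early, from 71.8, 59.4 and 69.5 CPM at 0-6hpi to 144, 146 and 133 at 6-12hpi (log2FC 1.08, SE 0.17, adjusted p = 2.36e-05), fell to 28.9, 28.8 and 20.3 at 24-30hpi (log2FC -2.20, SE 0.18, adjusted p = 3.69e-12) and rose again at 48-54hpi (log2FC 2.13, SE 0.18, adjusted p = 1.51e-12). The 24-30hpi libraries of Lsm3 lie below every library from MII to 18-24hpi. Lsm6 was among the 12 members that rose at 0-6hpi, from 12.4, 12.9 and 8.73 to 47.7, 44.8 and 45.3 CPM (log2FC 2.02, SE 0.16, adjusted p = 4.43e-12), and rose once more at 6-12hpi to 81.8, 77.9 and 79.9 CPM (log2FC 0.80, SE 0.14, adjusted p = 0.000153). Lsm7 rose at 12-18hpi from 55.0, 54.5 and 56.9 to 101, 142 and 91.6 CPM (log2FC 1.01, SE 0.16, adjusted p = 1.85e-05). Lsm2 was highest at 48-54hpi with a mean of 334 CPM, from 69.7 CPM in MII. Per kilobase, the highest and lowest of the 8 ring genes differed 57.2-fold in MII and 7.80-fold at 90-96hpi. The lowest in MII was Lsm4, at a mean of 1.26 CPM, so the size of that ratio rests on few reads.

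The LSM proteins outside these rings held the largest loss of any member. Lsm14b, an RNA-binding protein that keeps maternal mRNA in store in oocytes, had 358, 326 and 307 CPM in MII, 86.0, 73.8 and 53.4 at 12-18hpi, 21.6, 24.4 and 25.0 at 30-36hpi and 1.33, 3.25 and 2.39 at 90-96hpi. Each set lies below the one before, and the change over the whole span was log2FC -7.14, SE 0.25, adjusted p = 7.26e-24. Lsm14a, its paralogue found in processing bodies, kept most of its level until later. It read 613, 637 and 559 CPM in MII, 437, 466 and 433 at 18-24hpi and 43.0, 24.9 and 27.7 at 48-54hpi. The fall at 48-54hpi (log2FC -2.50, SE 0.15, adjusted p = 1.31e-16) was followed by a rise at 90-96hpi to 59.6, 69.7 and 70.5 CPM (log2FC 0.80, SE 0.14, adjusted p = 2.24e-05), which Lsm14b did not share (log2FC -0.53, SE 0.30, adjusted p = 0.159, not called).

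Lsm10 and Lsm11 encode the 2 proteins that replace SmD1 and SmD2 in U7 snRNP, which trims the 3′ ends of histone pre-mRNA, and their transcripts moved apart at fertilisation. Lsm10 went from 7.11, 10.5 and 8.84 CPM in MII to 116, 113 and 118 CPM at 0-6hpi, the largest rise of any member in that step (log2FC 3.72, SE 0.20, adjusted p = 5.07e-16). It was highest at 12-18hpi with 241, 306 and 234 CPM, fell to 13.4, 10.3 and 6.70 CPM at 48-54hpi (log2FC -2.21, SE 0.19, adjusted p = 2.18e-12) and rose at 90-96hpi to 43.3, 34.1 and 37.0 CPM (log2FC 1.96, SE 0.19, adjusted p = 2.7e-10). Lsm11 went from 54.8, 46.0 and 51.4 CPM to 25.3, 21.1 and 32.6 CPM in the first step (log2FC -0.94, SE 0.26, adjusted p = 0.00646, lost in 1 of 12 alternatives with an adjusted p up to 0.0595) and was at most 20.3 CPM in every library from 6-12hpi on. The window at 0-6hpi was labelled during fertilisation itself, and its part in the first step was not tested. Lsm12, which has an LSM domain but is in none of these rings, reached 124, 106 and 103 CPM at 48-54hpi from 6.74, 4.65 and 7.74 CPM at 12-18hpi (log2FC 2.75, SE 0.25, adjusted p = 3.85e-12 from 12-18hpi to 30-36hpi). Lsmem1, the gene that shares only the letters, fell from 6.37, 8.15 and 7.51 CPM in MII to at most 0.672 CPM at 90-96hpi.

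**Figure D4:**
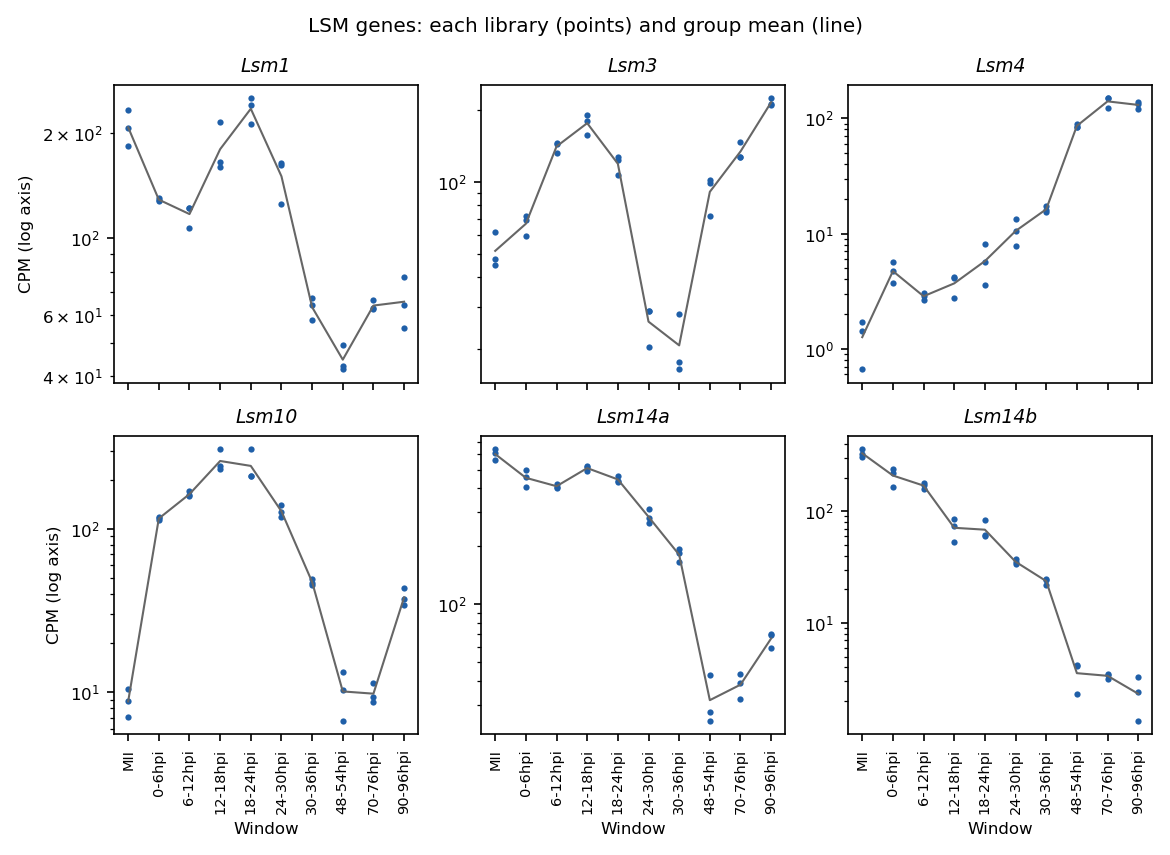
CPM of 6 LSM genes on log axes with their own range in each panel; points are the 3 libraries of each group and lines join group means. Lsm14b falls from 307 to 358 CPM in MII to 1.33 to 3.25 CPM at 90-96hpi, while Lsm10 rises at 0-6hpi, falls to 6.70 to 13.4 CPM at 48-54hpi and rises again in the last window.

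SR protein genes had more called rises than falls in each step from 18-24hpi to 48-54hpi, and only falls at 70-76hpi. Of 10 tested, 5 rose and 1 fell at 18-24hpi, 6 rose and 1 fell at 24-30hpi, 6 rose and none fell at 30-36hpi, 5 rose and 2 fell at 48-54hpi, and none rose and 5 fell at 70-76hpi. The shares of all genes in these 5 steps ran from 18.1% to 28.7% for rises and from 14.9% to 33.3% for falls. Srsf1, the founding member of the family, rose in small steps from 23.7, 26.5 and 17.7 CPM in MII through 73.5, 73.4 and 61.0 at 12-18hpi to 342, 371 and 452 at 48-54hpi. Its largest single rise was at 30-36hpi (log2FC 0.94, SE 0.14, adjusted p = 1.25e-06), and it fell at 70-76hpi (log2FC -1.24, SE 0.14, adjusted p = 8e-09). Srsf6 read 17.2, 13.0 and 21.6 CPM at 12-18hpi, 201, 224 and 209.6 at 30-36hpi and 687, 818 and 736 at 48-54hpi. No libraries of these 3 windows overlap, and the gene fell at 70-76hpi (log2FC -1.21, SE 0.17, adjusted p = 3.23e-07).

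Srsf3, for the smallest SR protein, was plentiful in MII and fell before it rose again. It had 397, 488 and 514 CPM in MII, 149, 135 and 197 at 30-36hpi, 1148, 1287 and 1238 at 48-54hpi and 545, 613 and 529 at 70-76hpi. The rise at 48-54hpi, with no overlap, was the largest of any member in that step (log2FC 2.93, SE 0.14, adjusted p = 1e-18). Srsf7 fell from MII to 12-18hpi (log2FC -1.34, SE 0.16, adjusted p = 6.84e-09) and rose to 628, 605 and 586 CPM at 48-54hpi. Srsf9 had at most 1.17 CPM in the MII libraries and 53.3, 94.9 and 76.6 CPM at 90-96hpi, an unevenly spread set (log2FC 6.47, SE 0.36, adjusted p = 2.49e-18). Srsf5 had the smallest ratio of highest to lowest group mean of any tested member (1.80), with 105 to 231 CPM over all 30 libraries, and was called only from 12-18hpi to 30-36hpi (log2FC 0.78, SE 0.13, adjusted p = 1.87e-06) and at 90-96hpi (log2FC -0.42, SE 0.13, adjusted p = 0.0093, lost in 3 of 12 alternatives with an adjusted p up to 0.127). Srsf2 rose most at 48-54hpi (log2FC 1.81, SE 0.14, adjusted p = 1.62e-13), and Srsf11 climbed from a mean of 68.2 CPM at 12-18hpi to 326 CPM at 90-96hpi. Srsf4 and Srsf10 went against the others at 48-54hpi, with log2 fold changes of -0.92 (SE 0.17) and -1.11 (SE 0.11).

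Partners of the members outside the symbol rule were counted by list. The list of other U5 and tri-snRNP genes also counts Dhx8, a spliceosome helicase that is not part of those particles. Each count is to be read against the share of all genes tested, which was 18.1% rising and 14.9% falling at 18-24hpi, 21% and 24.4% at 24-30hpi, 21% and 29% at 30-36hpi and 28.7% and 33.3% at 48-54hpi. The later shares were 21.6% and 21.8% at 70-76hpi, 20.1% and 19.5% at 90-96hpi, and 42.6% and 38.4% from MII to 90-96hpi. Of 16 genes for assembly of Sm rings (the SMN complex, which loads Sm proteins onto snRNA, and its helpers), 11 rose and 4 fell at 24-30hpi, 12 rose and 1 fell at 30-36hpi and 10 rose and 2 fell at 48-54hpi. The list then turned, with 3 rises and 9 falls at 70-76hpi (median log2 fold change -0.61) and 1 rise and 10 falls at 90-96hpi (median -0.75). From MII to 90-96hpi 12 rose and 2 fell (median 2.28). Gemin2, which holds the Sm proteins in that complex, had the largest rise over the whole span, from 0.328 ± 0.115 to 73.0 ± 17.7 CPM (SD; log2 fold change 7.75, SE 0.34, adjusted p = 2.68e-21). Smn1 itself fell, from 463 ± 99.2 to 54.8 ± 6.66 CPM (SD; log2 fold change -3.08, SE 0.17, adjusted p = 2.41e-18). The other U5 and tri-snRNP genes (14 tested of 15) showed 3 rises and 9 falls at 18-24hpi and 10 rises and 1 fall at 30-36hpi, where the helicase Snrnp200 rose from 23.6 ± 6.93 to 91.6 ± 21.9 CPM (SD; log2 fold change 1.96, SE 0.20, adjusted p = 5.01e-10). At 70-76hpi none of them rose and 7 fell, and at 90-96hpi 3 rose and 6 fell. Of 23 records for other U1, U2, U11 and U12 proteins and recognition factors, 12 rose and 2 fell at 30-36hpi, 2 rose and 8 fell at 70-76hpi, and over the whole span 10 rose and 10 fell. The 24 other Prp19 complex and catalytic factors had 15 rises and 1 fall at 48-54hpi, then 2 rises and 10 falls at each of 70-76hpi and 90-96hpi. Over the whole span 8 of them rose and 13 fell (median -0.75). Decapping and translation-repression partners of the LSM1 ring and of LSM14 had 5 rises and no fall among 15 at 0-6hpi, where 12.9% of all genes rose and 8.28% fell. None rose and 10 fell at 18-24hpi, 6 rose and 2 fell at 90-96hpi (median 0.41), and over the whole span none rose and 13 fell (median -3.27). Zar1, an RNA-binding protein of the oocyte and also on the list of oocyte markers, had the largest of those 13 falls, from 633 ± 31.4 to 1.02 ± 1.02 CPM (SD; log2 fold change -9.27, SE 0.51, adjusted p = 7.33e-14).

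In the genotype experiment the targeted gene comes first. Klf17 read 596, 805 and 746 CPM in the ctrl libraries and 673, 603 and 728 CPM in those labelled KO. The mKO libraries had 359, 845 and 794 CPM and the pKO libraries 812 and 1015 CPM. The level of Klf17 reads thus did not set the libraries labelled KO apart from ctrl; which part of the gene was removed is not stated, and reads outside it check nothing. Every direction below therefore refers to libraries as labelled. Mitochondrial genes took 3.23% to 4.18% of reads in ctrl, 5.92% to 11.4% in KO, 4.19% to 5.82% in mKO and 3.73% to 5.63% in pKO. The 6 oocyte markers summed to 1474 to 2076 CPM in ctrl, 2627 to 3090 in KO, 1891 to 2869 in mKO and 1592 to 1689 in pKO. Of the oocyte markers, Bmp15 accounts for most of the difference, from 1104 ± 241 CPM in ctrl to 2238 ± 217 CPM in KO (SD, n = 3). Zar1 (12.0 ± 1.13 and 12.3 ± 2.22 CPM) and Nlrp5 (137 ± 28.0 and 148 ± 36.4 CPM) differed by less than their spread, and Zp3 was lower in KO (96.5 ± 15.7 and 39.4 ± 4.09 CPM). The 5 markers of the 2-cell stage summed to 723 to 1048 CPM in ctrl, 1103 to 1156 in KO, 814 to 1135 in mKO and 757 to 869 in pKO. Zfp352 accounts for most of that difference, from 379 ± 66.9 CPM in ctrl to 569 ± 79.4 CPM in KO (SD, n = 3). Usp17lc, Zscan4c and Zscan4d also had higher means in KO, while Tdpoz1 was lower (268 ± 23.1 and 217 ± 3.83 CPM). The 8 blastocyst markers summed to 27.2 to 43.1 CPM in ctrl, 50.0 to 121 in KO, 42.5 to 51.0 in mKO and 22.8 to 28.2 in pKO. Krt18 was the largest part of that sum (19.3 ± 6.52 CPM in ctrl and 46.8 ± 24.9 CPM in KO). Nanog (2.23 ± 2.00 and 0.227 ± 0.284 CPM) and Elf5 (0.0350 and 0.0202 CPM) had lower means in KO, and the other blastocyst markers higher ones. The mitochondrial share and all 3 marker sums are higher in every library labelled KO than in every ctrl library, and their part in the results below was not tested, except that leaving the mitochondrial genes out of the fit gave the same number of called members in each comparison.

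In the libraries labelled KO, 9 of 58 members tested were lower than in ctrl and none was higher, where 6.31% of the 16694 genes tested fell and 1.82% rose. The median log2 fold change was -0.59 for the members and 0.05 for all genes, 45 of 58 members lay below 0 (48.1% of all genes), and for 32, or 55.2%, the 2 sets of libraries did not overlap (36.2% of all genes). Among the 9 called are 3 of 9 U5 and tri-snRNP genes (Eftud2, Prpf38a and Prpf4), 2 of 9 SF3 genes (Sf3a1 and Sf3a3), Snrpa1 of the U2 snRNP, Cdc5l of the Prp19 complex and Lsm12 among the other LSM genes. No Sm core, LSM ring or SR gene was called. The count rests on few libraries: it was 0 without KO replicate 2, 1 without KO replicate 1, ctrl replicate 2 or ctrl replicate 3, 3 without KO replicate 3 and 5 without ctrl replicate 1. It was 15 (1 rise and 14 falls) without mKO replicate 1, whose profile was closest to the libraries labelled KO (r of 0.943 to 0.954). That setting called 2425 of all genes (787 rises and 1638 falls). Under total count scaling 1 member rose and 8 fell, and with DESeq2 size factors in edgeR 1 rose and 5 fell.

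Snrpa1 read 189, 221 and 208 CPM in ctrl and 71.4, 70.3 and 46.1 CPM in KO (log2FC -1.72, SE 0.32, adjusted p = 0.00922, lost in 1 of 14 alternatives with an adjusted p up to 0.0611). The mKO libraries had 58.7, 140.4 and 98.7 CPM and the pKO libraries 288 and 214 CPM. All mKO values lie below all ctrl values, and no mKO call was made (log2FC -1.05, SE 0.32, adjusted p = 0.616, not called). Cdc5l, which rose at 18-24hpi in the windows, read 132, 143 and 138 CPM in ctrl, 46.6, 42.0 and 73.5 in KO, 89.8, 126 and 89.8 in mKO and 147 and 139 in pKO. Its libraries labelled KO lie below those of all other genotypes (against ctrl, log2FC -1.35, SE 0.29, adjusted p = 0.0138, lost in 4 of 14 alternatives with an adjusted p up to 0.0837). Eftud2 read 17.3, 38.8 and 32.2 CPM in ctrl, 11.4, 5.85 and 5.39 in KO, 5.44, 27.1 and 16.6 in mKO and 29.1 and 57.7 in pKO. It had the lowest log2 fold change of the 9, on low and widely spread levels (log2FC -1.96, SE 0.53, adjusted p = 0.0331, lost in 5 of 14 alternatives with an adjusted p up to 0.144). Sf3a1 read 139, 207 and 201 CPM in ctrl and 65.6, 63.9 and 71.0 in KO, with mKO libraries at 71.2, 233 and 105 CPM that reach from near the KO level to above ctrl (KO against ctrl, log2FC -1.45, SE 0.37, adjusted p = 0.0279, lost in 5 of 14 alternatives with an adjusted p up to 0.119).

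Sf3a3, Lsm12, Prpf4 and Prpf38a fell by less, and their calls were lost in 5 to 8 of 14 alternatives each, with adjusted p up to 0.164. Sf3a3 had a log2 fold change of -1.29 (SE 0.35), Lsm12 of -1.23 (SE 0.35), Prpf4 of -1.14 (SE 0.34) and Prpf38a of -0.85 (SE 0.24). For all 4 the libraries labelled KO lie below every ctrl library. Of the members followed throughout, Sf3b1 (-0.73), Prpf8 (-0.61), Snrpb (-0.80), Srsf1 (-0.70) and Srsf5 (-0.82) also had libraries labelled KO below every ctrl library without being called, with adjusted p of 0.0762 to 0.218. Lsm1, Lsm14a and Lsm14b had all KO libraries above all ctrl libraries, again without a call; Lsm1 read 116, 83.9 and 73.3 CPM in ctrl and 233, 224 and 123 in KO (log2FC 1.09, SE 0.34, adjusted p = 0.0538, not called). The remaining followed members, Snrpe (0.05), Srsf3 (0.47), Lsm10 (0.57) and Prpf19 (-0.92), overlapped between the 2 groups.

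**Figure D5:**
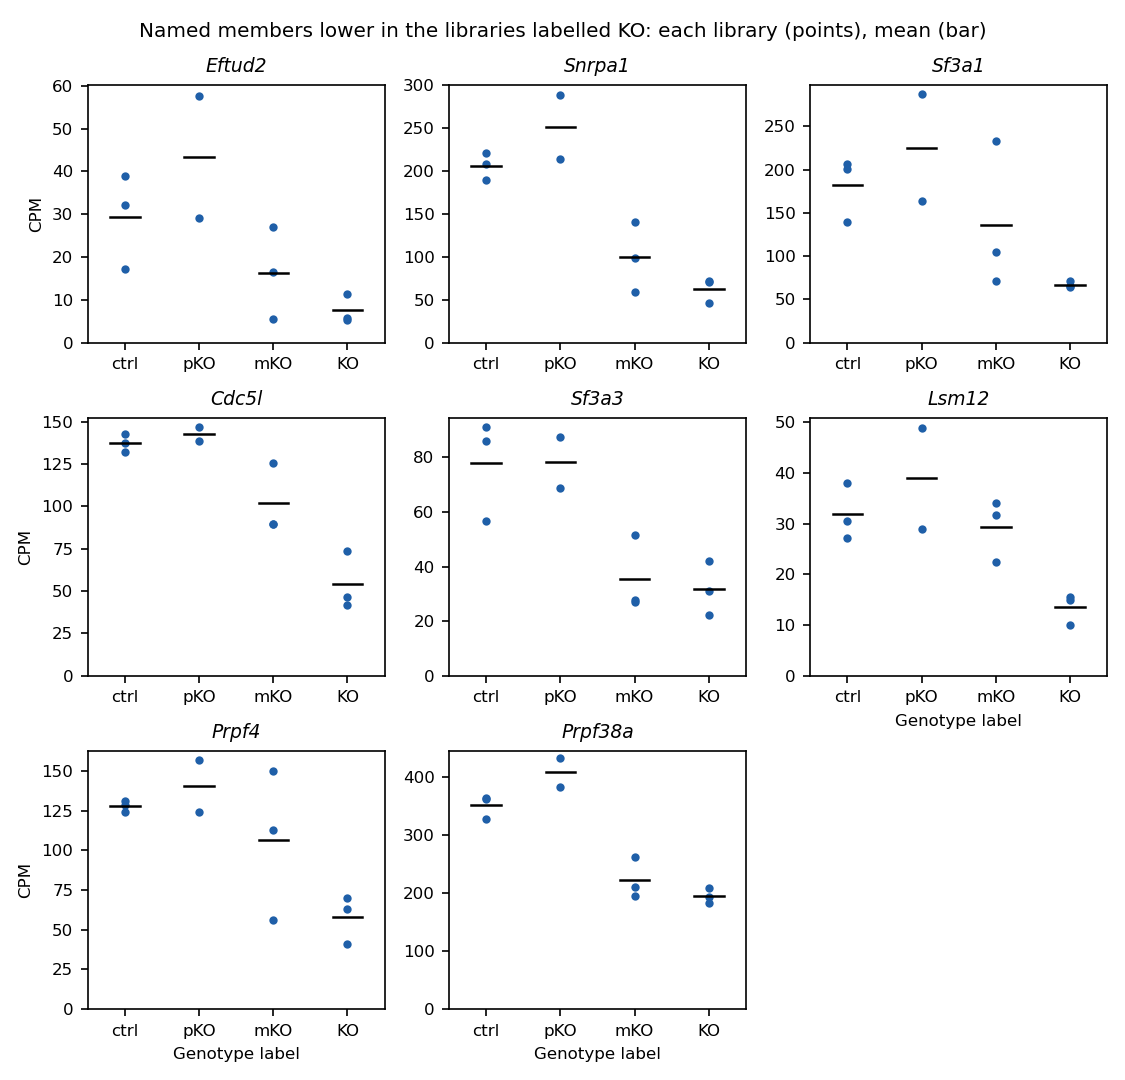
CPM (linear axes from 0, own range in each panel) of 8 members called lower in the libraries labelled KO than in ctrl; points are libraries (3 ctrl, 2 pKO, 3 mKO, 3 KO) and bars are means. In all 8 panels the KO points lie below every ctrl and pKO point, while the mKO points range from the KO level (as for Eftud2, Snrpa1 and Sf3a3) to above every ctrl point (Sf3a1, Prpf4).

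Against pKO, 16 members were lower in the libraries labelled KO and none higher, where 9.67% of all genes fell and 2.83% rose, with medians of -0.69 and 0.09. This comparison and the one with ctrl share the KO libraries, so they are not 2 independent results. The 16 are Sf3a1, Sf3a3, Sf3b1, Sf3b2 and Sf3b3 of SF3, Eftud2, Prpf4, Prpf31 and Prpf38a of U5 and the tri-snRNP, Snrpa1, Snrpc, Cdc5l, Srsf6, Lsm2, Lsm4 and Lsm12. Snrpa1 was called in all 12 alternatives (log2FC -2.01, SE 0.35, adjusted p = 0.00449). Eftud2 (log2FC -2.52, SE 0.57, adjusted p = 0.0118, lost in 3 of 12 alternatives with an adjusted p up to 0.114) and Prpf31 (log2FC -2.22, SE 0.55, adjusted p = 0.0171, lost in 3 of 12 alternatives with an adjusted p up to 0.378) had the lowest values. Prpf31 read 27.6 and 103 CPM in the 2 pKO libraries, which differ from each other more than the lower one does from the KO libraries (17.1, 14.6 and 10.2 CPM). With 2 pKO libraries the count was 5 without pKO replicate 2 and 8 without pKO replicate 1, and 1 to 6 without one of the KO libraries; under total count scaling it was 9.

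No member was called in mKO or pKO against ctrl, or in KO against mKO, where 0% of all genes were called by edgeR. At an unadjusted p below 0.05 there were 3 members in mKO against ctrl (7.45% of all genes), none in pKO against ctrl (2.85%) and 11, all below 0, in KO against mKO (13.3%). DESeq2's Wald test called none of the members in these 3 comparisons. Without mKO replicate 1, however, 8 members were called lower in KO than in mKO, so the difference between these genotypes depends on that library. That setting called 1044 of all genes in this comparison (258 rises and 786 falls), so the change was not confined to the members. The median log2 fold change of the members was -0.13 in mKO and 0.23 in pKO against ctrl, with -0.30 in KO against mKO.

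The members that fell in the libraries labelled KO can be set beside the window series, which shares no library with them. Of the 9 lower than in ctrl, 6 were among the 24 that rose from 18-24hpi to 24-30hpi, which is 66.7% of the 9 and 25% of the 24. With the step from 24-30hpi to 30-36hpi the overlap was 7, or 77.8% of the 9 and 21.2% of the 33 that rose. Of the 16 lower than in pKO, 11 had risen in the first of these steps (68.8% of the 16 and 45.8% of the 24) and 14 in the second (87.5% of the 16 and 42.4% of the 33). These overlaps are to be read against all 59 members tested in the windows, of which 40.7% rose at 24-30hpi and 55.9% at 30-36hpi. Of all genes, 21% rose in each of these steps. No such overlap is given for all genes. The windows are not labelled with the genotype libraries' stage, so the 2 experiments cannot be matched in time. Of the 16 assembly genes for Sm rings, 9 fell in the libraries labelled KO against ctrl (median -1.29) and none rose, where 6.31% of all genes fell. Without one of the KO or ctrl libraries the 9 became 0 to 8, with 0 without KO replicate 2, 1 without KO replicate 1, ctrl replicate 2 or ctrl replicate 3, and 5 without KO replicate 3. Its lowest gene was Prmt5, which methylates Sm proteins, from 165 ± 39.9 to 36.7 ± 16.5 CPM (SD; log2 fold change -2.17, SE 0.47, adjusted p = 0.0139). In the list of other U5 and tri-snRNP genes 4 of 14 fell. Its lowest was Dhx8, counted there though not part of those particles, from 192 ± 57.5 to 59.8 ± 15.1 CPM (SD, log2 fold change -1.69, SE 0.39, adjusted p = 0.018). Of the Prp19 complex and catalytic factors 5 of 24 fell. These counts became 0 to 2 and 0 to 5 without one of the KO or ctrl libraries. None of the 15 decapping partners was called in either direction.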

How the data were processed

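Polyadenylated RNA of 30 window libraries and 11 genotype libraries was analysed; 14 ATAC-seq libraries and 6 libraries labelled by number of embryos, the rest of the 61 samples listed, were not used here. Reads had been trimmed and aligned to mm10 with tools that include Trim Galore 0.6.10 and STAR 2.7.10a, per the submitters' processing notes. How reads were counted, whether strand was used and how reads matching several places were handled are not given in the sources used here. The authors deposited read counts per gene. For 90-96hpi replicate 3 the deposited column holds values that are not whole and was used as estimated counts, rounded to whole numbers; 1 damaged record of the window counts was left out.

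From the deposited counts, genes with low counts were dropped by edgeR 4.0.16's filter (minimum count 10), libraries were scaled by TMM, and edgeR's robust quasi-likelihood test was fitted for each experiment over all its groups, with 2-sided p-values adjusted by Benjamini-Hochberg over all genes tested and a threshold of 0.05. CPM are counts scaled to the TMM-adjusted library size, and CPM per kilobase use the gene length in the deposited table. SE is the log2 fold change divided by the square root of the test's F. The procedure was tested on simulated data. DESeq2 1.42.0 was an alternative. Members and lists were chosen with earlier results of these data known, so counts over them are descriptions; 1 member enters the counts but its own values are not reported here. Named are 14 members followed throughout, the 3 highest and 3 lowest called members of each comparison with at least 20 CPM and no overlap between libraries, the 2 of each role with the widest range over windows, and the highest or lowest gene of each list; other members were named after their values were seen. Leaving out mitochondrial genes, leaving mKO replicate 1 out of KO against ctrl, and counting the partner lists of KO against ctrl under the alternatives were added after seeing the data.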

Additional observations from a re-analysis of the deposited data

How the results depend on the processing

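Over all alternatives, 186 counts of called members stayed within 1.5 times their main value and 22 did not, and 2432 single-member calls kept their direction and their side of the threshold, 179 lost the call and 1 reversed. The reversed one was Snrpc (log2 fold change -0.0480) from 30-36hpi to 48-54hpi under total count scaling, a step in which that scaling lowered the median of all genes by 0.48; it was called as a rise with TMM. The count at 6-12hpi was 8, 21 with only those 2 groups in the fit and 13 with DESeq2's Wald test. For KO against ctrl it was 9, and 14 with the replicate number as a block (replicate block), 21 with only those 2 groups and 15 without mKO replicate 1. KO against mKO went from 0 to 3 with no low-count filter, and KO against pKO from 16 to 9 under total count scaling; the cause was not tested. Leaving out 1 library gave 25 to 29 members at 0-6hpi, 3 to 7 at 6-12hpi, 12 to 17 at 12-18hpi, 27 to 33 at 18-24hpi, 41 to 45 at 24-30hpi, 39 to 41 at 30-36hpi, 38 to 42 at 48-54hpi, 24 to 29 at 70-76hpi and 24 to 34 at 90-96hpi. Over the longer spans it gave 33 to 38 (MII to 12-18hpi), 52 to 54 (12-18hpi to 30-36hpi) and 49 to 54 (MII to 90-96hpi). Among genotypes it gave 0 to 15 for KO against ctrl, 0 to 0 for mKO and for pKO against ctrl, 0 to 8 for KO against mKO and 1 to 8 for KO against pKO. The low count at 6-12hpi came without 0-6hpi replicate 3. Where a setting left pKO with 1 library, that library is assumed to vary like the other groups.

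The replicate block gave 18 members for KO against pKO, and apart from KO against ctrl (9 to 14) it moved no count of members by over 1.5 times. The labels do not say what a replicate number shares, and same-numbered libraries did not all deviate together: their deviations from the group means correlated above 0.1 in 4 of 135 pairs of window libraries (median 0.00) and 6 of 15 pairs of genotype libraries (median 0.09, highest 0.32, against a median of -0.05 for other pairs). The fits without the block are therefore the main ones. As a hint from the data, 14 of 30 window libraries and 9 of 11 genotype libraries correlated best with their own number. Over all genes, the 1358 calls of KO against ctrl became 2064 with the replicate block, 2237 with no low-count filter, 2592 with DESeq2's Wald test, 3166 with only those groups, 2425 without mKO replicate 1 and 0 to 892 without one of the KO or ctrl libraries. KO against pKO had 2087 calls, 3521 by DESeq2 and 500 to 1180 without 1 library. KO against mKO had 0 calls, 336 by DESeq2, 543 with no filter and 1044 without mKO replicate 1. For mKO against ctrl the 0 became 32 by DESeq2, 47 with no filter and 110 without mKO replicate 2, and for pKO against ctrl 2 by DESeq2 and 4 with no filter. With only those 2 groups in the fit the windows gave 3577 calls at 6-12hpi (1243 in the main fit) and 3628 at 12-18hpi. Under the alternatives the lists of partner genes were counted only for KO against ctrl. Depth limits the members near or below 1 CPM, such as Snrpd2 and Srsf9 in MII, whose level there rests on few reads.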

Other observations

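Splicing regulators outside the symbol rule were counted in the same fits. Of 26 hnRNP genes, whose products coat pre-mRNA and often oppose SR proteins, none rose and 11 fell at 0-6hpi, where 12.9% of all genes tested rose and 8.28% fell. The list had 9 rises and 2 falls at 18-24hpi (18.1% and 14.9% of all genes), 3 and 9 at 24-30hpi (21% and 24.4%), 15 and 4 at 30-36hpi (21% and 29%) and 17 and 3 at 48-54hpi (28.7% and 33.3%). It had 3 rises and 9 falls at 70-76hpi (21.6% and 21.8%), 15 and 4 at 90-96hpi (20.1% and 19.5%) and 16 and 6 from MII to 90-96hpi (42.6% and 38.4%). Syncrip had the largest rise of the list over the whole span, from 3.45 ± 1.62 to 179.7 ± 5.90 CPM (SD; log2 fold change 5.70, SE 0.25, adjusted p = 5.15e-21). Ptbp2 had the largest fall, from 273 ± 4.68 to 15.4 ± 5.18 CPM (SD; log2 fold change -4.15, SE 0.19, adjusted p = 2.07e-20). In the libraries labelled KO, 3 of the 26 were lower than in ctrl and none higher (6.31% and 1.82% of all genes), with Hnrnph2 lowest, from 84.8 ± 6.85 to 27.2 ± 10.7 CPM (SD; log2 fold change -1.64, SE 0.34, adjusted p = 0.0126). Without one of the KO or ctrl libraries 0 or 1 of the 26 was called lower.

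Kinases of SR proteins and SR-like genes (16 tested of 17) had more falls than rises over the whole span, with 5 rises, 10 falls and a median log2 fold change of -1.38, against 42.6% rising and 38.4% falling of all genes. Srpk2, a kinase that phosphorylates SR proteins in the cytoplasm, fell from 579 ± 21.6 to 18.6 ± 5.91 CPM (SD; log2 fold change -4.96, SE 0.17, adjusted p = 4.6e-24). Tra2a, an SR-like splicing activator, rose from 4.98 ± 1.36 to 126 ± 31.0 CPM (SD; log2 fold change 4.66, SE 0.28, adjusted p = 1.8e-17). At 70-76hpi none of the 16 rose and 7 fell, in the step in which 5 of 10 SR genes fell, against 21.6% and 21.8% of all genes. No gene of this list was called in KO against ctrl. Among the partners of the catalytic core, Crnkl1 fell from 1329 ± 60.3 to 82.2 ± 1.22 CPM (SD; log2 fold change -4.01, SE 0.13, adjusted p = 3.88e-25) while Dhx16 rose from 5.00 ± 1.16 to 226 ± 32.1 CPM (SD; log2 fold change 5.49, SE 0.32, adjusted p = 2.74e-17).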
